A study of Mus musculus with 36 samples.

Results

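The 10 genes described here control the 2 sterol-sensing arms of liver lipid gene expression, the sterol regulatory element binding proteins (SREBPs) and the liver X receptors (LXRs). They were chosen by name, with earlier results of these data known, as 10 of the 38283 genes in the deposited table. The genes are *Srebf1* and *Srebf2*, which encode SREBP-1 and SREBP-2, *Scap*, *Insig1* and *Insig2*, which encode the escort and the anchors of the SREBPs, *Mbtps1* and *Mbtps2*, which encode the proteases that release them, *Nr1h2* and *Nr1h3*, which encode LXRβ and LXRα, and *Mylip*, which encodes the ubiquitin ligase also called IDOL. All 10 passed edgeR's filter on low counts, with between 67 counts (*Mbtps2*) and 12676 counts (*Insig1*) in any mouse.

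SREBPs are made as precursors in the membrane of the endoplasmic reticulum, where SCAP binds them and INSIG proteins hold the complex back when sterols are plentiful. When sterols fall, SCAP carries the precursor to the Golgi, where the site-1 protease (MBTPS1) and then the site-2 protease (MBTPS2) cut it and free the part that enters the nucleus. SREBP-1c, a product of *Srebf1*, drives fatty acid synthesis and responds to insulin in liver, whereas SREBP-2 drives cholesterol synthesis and uptake. LXRs are nuclear receptors for oxysterols that raise *Srebf1* and *Mylip*, and MYLIP marks receptors of the cell surface for breakdown.

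The livers came from male mice of 16 weeks on a C57Bl/6J background, all fed chow, and their RNA was sequenced. Wild-type (WT) mice were compared with heterozygous mice carrying a knock-in *Pik3r1* allele in which a tyrosine codon is a stop codon (WT/Y657*), a change known from SHORT syndrome, a human disorder with severe insulin resistance. Each genotype was taken fed, after a fast of 16 h, or after a fast of 16 h and 6 h of refeeding with chow, with 6 mice in each of the 6 groups and 36 in all. The question addressed was how weakened insulin signalling through phosphoinositide 3-kinase alters the liver's response to feeding. The mutant allele was present in every cell, was introduced together with a LoxP-flanked neomycin resistance cassette, and was backcrossed at least 3 times, so effects in other tissues cannot be told apart from effects within hepatocytes. Whole liver was used, in which fewer cells of a type and less RNA per cell cannot be told apart.

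Total counts per mouse lay between 8839488 and 19542775, with a median of 13596665.5. *Pik3r1* itself was at 74.4 to 182 CPM (library-scaled counts, TMM method) in all 36 mice, which sums both alleles and does not check the genotype labels. The 8 hepatocyte markers together held 49840 to 92796 CPM in every mouse. The 4 adipocyte markers together held at most 9.01 CPM, with *Adipoq*, *Plin1* and *Lep* at a median of 0. The fourth, *Cidea*, had a median of 0.612 CPM and reached 8.83 CPM. The labels name each mouse by state (ALC fed, ONF fasted, RF6 refed), genotype and a running number. By that number the fasted and the refed mice fall into a lower series (up to RF6_WT_828) and a higher one (from RF6_WT_896), each with 3 mice per genotype and state, and the fed mice lie between them. Feeding state and number series therefore cannot be told apart where fed mice are compared with the others. In the higher series of fasted mice the wild-type numbers (ONF_WT_918 to ONF_WT_920) all came before the WT/Y657* numbers (ONF_MT_921 to ONF_MT_923).

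The genes lie on 10 chromosomes, with positions given here from GENCODE M21 (mouse build GRCm38). The positions deposited with the counts were identical to these for 5 of the 10 genes. *Srebf1* (ENSMUSG00000020538) occupies chr11:60199089-60222581 on the minus strand, whereas its deposited position is the longer chr11:60105013-60222581. It shares 109 exonic bases with *Rai1* on the opposite strand, which was at 5.75 to 11.5 CPM in all mice, and 66 with *Mir6922* on its own strand. *Srebf2* (ENSMUSG00000022463, chr15:82147181-82205379, plus strand) hosts *Mir33* in an intron. *Insig1* (ENSMUSG00000045294, chr5:28071363-28078662, plus), *Mbtps1* (ENSMUSG00000031835, chr8:119508156-119558735, minus), *Nr1h2* (ENSMUSG00000060601, chr7:44549616-44553951, minus) and *Mylip* (ENSMUSG00000038175, chr13:45389742-45412022, plus) overlap no annotated gene. *Insig2* (ENSMUSG00000003721, chr1:121304353-121332589, minus) overlaps another gene only in introns. *Scap* (ENSMUSG00000032485, chr9:110333288-110384950, plus) shares 985 exonic bases with *5830462I19Rik* on the other strand. *Nr1h3* (ENSMUSG00000002108, chr2:91184061-91202834, minus) shares 34 with *Gm13783* on its own strand. *Mbtps2* (ENSMUSG00000046873, chrX:157535371-157598715, minus) shares 2867 exonic bases on the same strand with *Yy2*, which was at no more than 1.53 CPM in any mouse, so reads in that stretch cannot be assigned with certainty. Whether the counting used strand is not given in the sources used here.

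Promoter sequence is given for both SREBP genes and both INSIG genes, to show 1 window of each, and the windows shown differ in the elements they hold. Each line gives the 250 bases before an annotated start, from RefSeq on GRCm38.p6, in the direction of transcription. Capitals mark matches on either strand to 4 motifs. ATCACCCCA is a sterol regulatory element. CCAAT is the box of that name, and appears as ATTGG where it lies on the other strand. CACGTG is an E-box. GGTTACT, which appears as AGTAACC where it lies on the other strand, opens the LXR elements known from the SREBP-1c promoter. GGGCGG (a GC box) was searched as well and is left in lower case, and no capitalised match overlaps another.
Srebf1, chr11:60210472-60210721, minus strand: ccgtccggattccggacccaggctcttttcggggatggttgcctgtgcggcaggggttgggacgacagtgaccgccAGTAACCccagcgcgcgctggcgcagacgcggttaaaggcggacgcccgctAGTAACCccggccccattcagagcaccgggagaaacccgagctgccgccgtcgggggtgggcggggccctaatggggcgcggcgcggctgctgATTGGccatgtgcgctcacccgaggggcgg
Srebf2, chr15:82147019-82147268, plus strand: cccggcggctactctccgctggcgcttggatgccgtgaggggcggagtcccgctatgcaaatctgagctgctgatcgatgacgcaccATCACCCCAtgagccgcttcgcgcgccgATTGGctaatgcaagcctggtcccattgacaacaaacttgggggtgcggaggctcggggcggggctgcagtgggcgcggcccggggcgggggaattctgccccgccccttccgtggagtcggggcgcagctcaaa
Insig1, chr5:28071162-28071411, plus strand: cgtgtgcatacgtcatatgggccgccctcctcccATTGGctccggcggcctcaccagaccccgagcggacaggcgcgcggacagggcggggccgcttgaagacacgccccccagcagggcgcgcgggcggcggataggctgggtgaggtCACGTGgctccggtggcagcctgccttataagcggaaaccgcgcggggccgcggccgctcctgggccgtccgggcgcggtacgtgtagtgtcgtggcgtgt
Insig2, chr1:121332590-121332839, minus strand: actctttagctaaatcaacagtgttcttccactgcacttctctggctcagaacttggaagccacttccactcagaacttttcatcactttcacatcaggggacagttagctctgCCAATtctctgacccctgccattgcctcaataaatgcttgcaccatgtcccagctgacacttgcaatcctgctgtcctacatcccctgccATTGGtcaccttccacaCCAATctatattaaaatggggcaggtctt

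The *Srebf1* window is that of the innermost of 3 annotated starts, and it holds 2 copies of GGTTACT, whose nearest ends are 168 and 117 bases before the start. The windows of the other 2 starts held none. Of 32851 promoter windows of the same length, 1.88% held that motif and 0.0365% held it more than once. *Srebf2* held ATCACCCCA 163 to 155 bases before its start, as did 0.24% of all windows. *Insig1* held CACGTG 101 to 96 bases before its start, as did 6.02% of all windows, and *Scap* was the other of the 10 genes with this motif. The *Insig2* window, that of the outermost of 3 starts, held CCAAT 3 times and no CG dinucleotide, whereas the *Insig1* window held 34. The windows of the other 2 *Insig2* starts held 16 and 23 CG dinucleotides, no CCAAT and 1 GC box each. CCAAT was present in 33.8% of all windows, in 10.1% at least 2 times, and 3 times also before *Mylip*. GGGCGG was present in 32.7%. Windows were found for all 10 genes, 16 in all. A match describes the letters of a window and not a bound site.

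Levels between genes were compared per length, as RPKM (the same scaled CPM per kilobase of merged exons). In fed wild-type mice *Insig1* was highest at 181 ± 27.3 RPKM (SD, n = 6), followed by *Srebf1* at 94.2 ± 9.92, *Insig2* at 54.8 ± 13.2, *Nr1h3* at 41.0 ± 2.199 and *Scap* at 16.4 ± 1.63. *Mbtps1* (7.65 ± 0.318), *Nr1h2* (5.68 ± 0.540), *Srebf2* (4.91 ± 0.690), *Mylip* (2.77 ± 0.406) and *Mbtps2* (0.880 ± 0.10) followed. The ranges of *Insig2* (34.3 to 67.4 RPKM) and *Nr1h3* (38.0 to 43.1) overlapped, as did those of *Nr1h2* (5.21 to 6.69) and *Srebf2* (4.08 to 5.68), and no other neighbours in this order overlapped. In fasted WT/Y657* mice the order was led by *Insig2* at 167 ± 35.96 RPKM, and *Srebf1* had moved to 7.54 ± 2.17, beside *Mylip* at 7.20 ± 1.076.

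**Figure D1:**
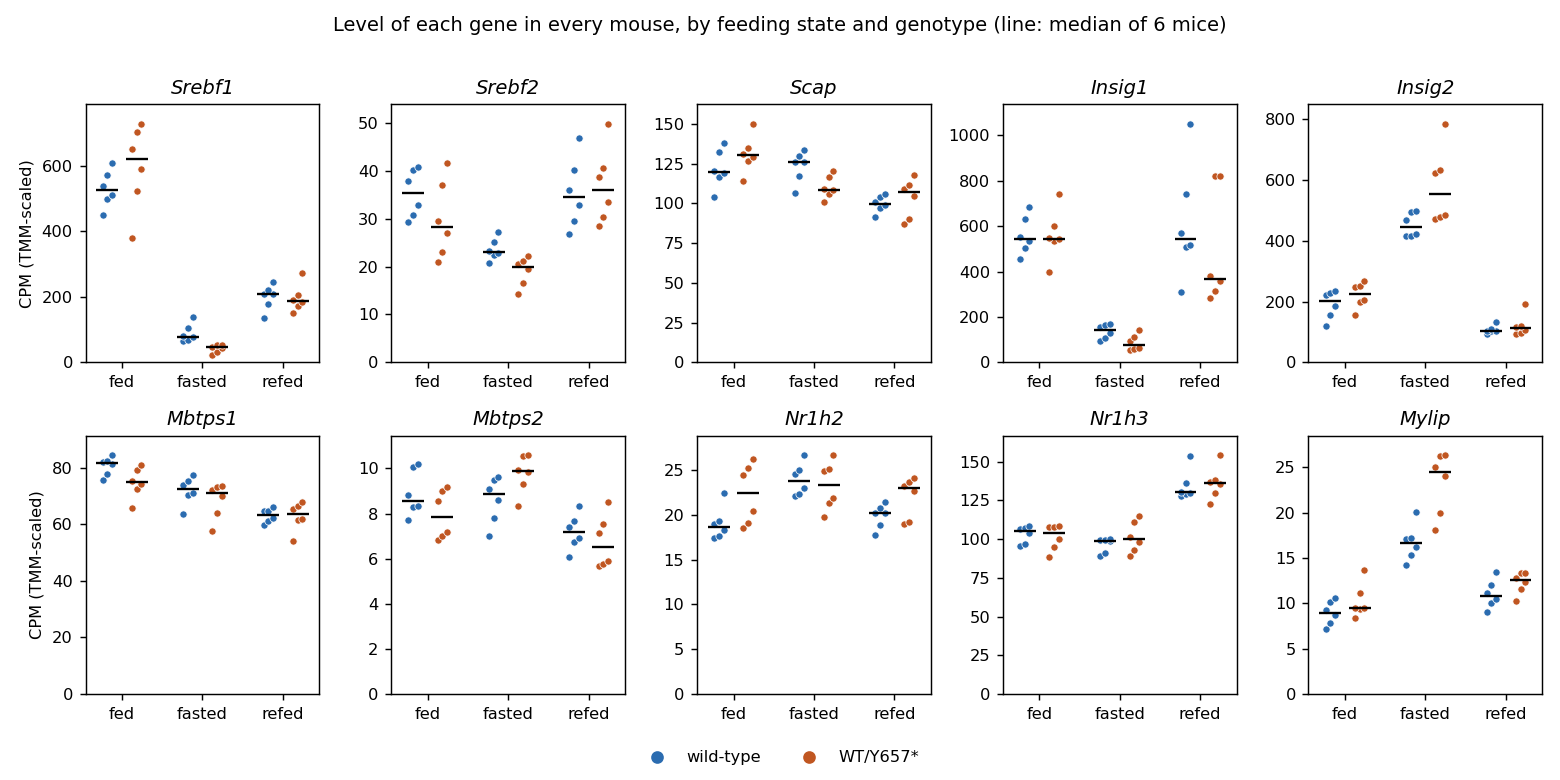
CPM of each of the 10 genes in every mouse (points) by feeding state, wild-type in blue and WT/Y657* in orange, with a line at the median of 6 mice and each vertical axis starting at 0. Srebf1 and Insig1 were low and Insig2 and Mylip high in fasted mice of both genotypes. Only Srebf1 showed 2 genotypes without overlap, in the fasted state, and the share of all genes without overlap is not given here.

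Fasting changed most of these genes in both genotypes. Genes were tested by the quasi-likelihood F-test of edgeR, p-values were adjusted by Benjamini and Hochberg's method over the 13945 genes tested, and a gene was called at an adjusted p under 0.05. In wild-type mice 7 of 10 genes were called, 3 higher and 4 lower in fasted mice, against 32% of all genes tested (14.5% higher and 17.5% lower). In WT/Y657* mice 7 of 10 were also called, again 3 higher and 4 lower, against 32.9% of all genes (15.2% higher and 17.7% lower). *Srebf1*, *Srebf2*, *Insig1*, *Insig2* and *Mylip* were called in both. *Mbtps1* and *Nr1h2* were called in wild-type mice, and *Scap* and *Mbtps2* in WT/Y657* mice, while *Nr1h3* was called in neither.

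Refeeding turned most of these changes round within 6 h. In wild-type mice 9 of 10 genes were called between refed and fasted mice, 4 higher and 5 lower, against 30.2% of all genes tested (16.5% higher and 13.7% lower). In WT/Y657* mice 7 of 10 were called, 4 higher and 3 lower, against 31.3% (17.1% higher and 14.2% lower). The 4 genes that rose were *Srebf1*, *Srebf2*, *Insig1* and *Nr1h3* in both genotypes. The fasting and refeeding comparisons share the fasted mice, so they are given side by side and not as independent evidence. Compared with fed mice, 6 of 10 genes differed in refed wild-type mice, against 27.5% of all genes, and 5 of 10 in refed WT/Y657* mice, against 26.1%.

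**Figure D2:**
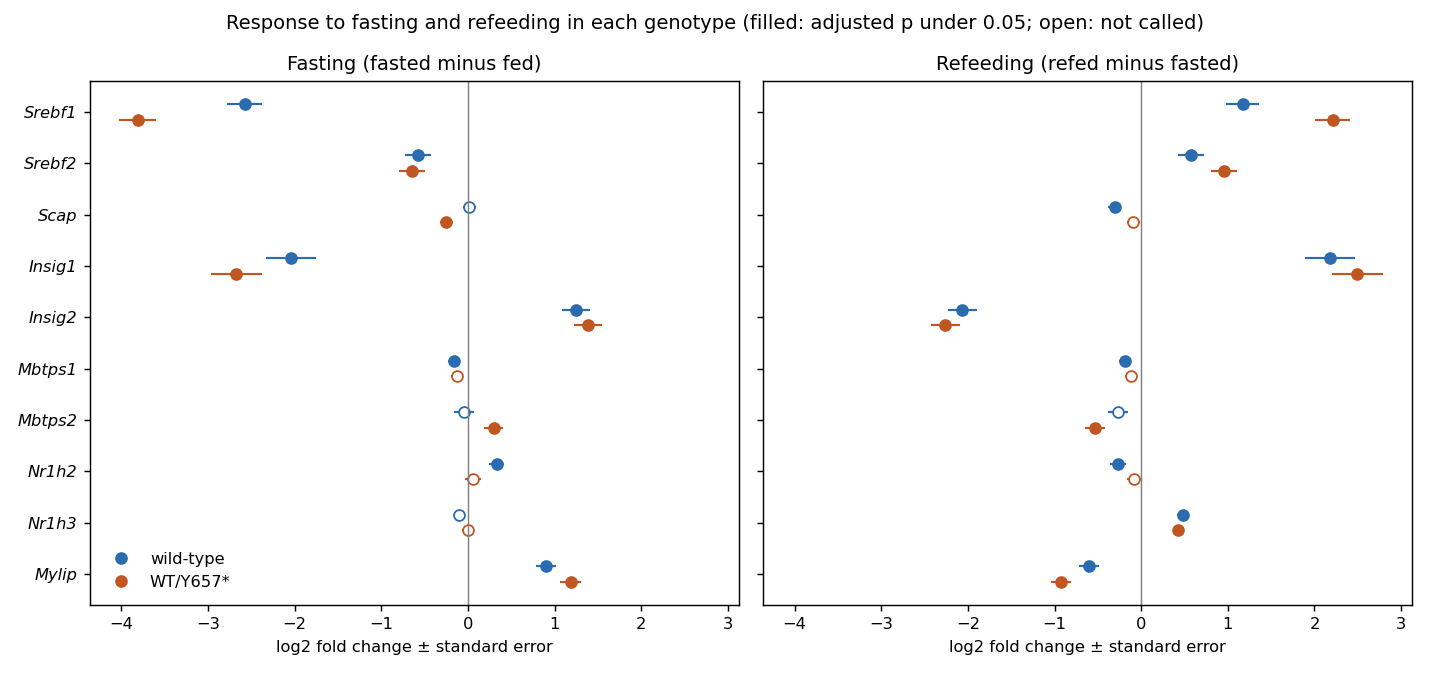
Log2 fold change with its standard error for each gene on fasting (left, fasted minus fed) and refeeding (right, refed minus fasted), wild-type in blue and WT/Y657* in orange, with filled points for an adjusted p under 0.05. Srebf1 lay at -2.58 and -3.81 on fasting and at 1.17 and 2.21 on refeeding, and Insig2 moved against Insig1 in all 4 comparisons.

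*Srebf1* had the largest fasting response of the 10 genes in both genotypes. In wild-type mice it was at 451, 526 and 608 CPM (lowest, median, highest) when fed, 64.3, 78.0 and 139 when fasted and 137, 209 and 247 when refed. WT/Y657* mice had it at 379, 622 and 729 CPM when fed, 22.8, 45.9 and 54.0 when fasted and 152, 188 and 273 when refed. Fed and fasted mice did not overlap in either genotype, and refed mice stayed below all fed mice of their genotype.

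On fasting *Srebf1* fell 5.97-fold in wild-type mice (log2 fold change -2.58, standard error 0.20, adjusted p = 5.77e-12) and 14.1-fold in WT/Y657* mice (-3.81, 0.21, adjusted p = 3.80e-15). On refeeding it rose 2.25-fold in wild-type mice (1.17, 0.19, adjusted p = 1.55e-05) and 4.63-fold in WT/Y657* mice (2.21, 0.20, adjusted p = 2.69e-10). Refeeding for 6 h did not bring the transcript back to the fed level, and it remained 2.65-fold lower than in fed mice in wild-type (-1.41, 0.19, adjusted p = 1.83e-06) and 3.04-fold lower in WT/Y657* mice (-1.60, 0.19, adjusted p = 1.87e-07).

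*Srebf2* moved the same way over a smaller range. It was at 29.3, 35.3 and 40.8 CPM in fed, 20.7, 23.1 and 27.1 in fasted and 26.8, 34.4 and 46.8 in refed wild-type mice, whereas WT/Y657* mice lay at 20.9, 28.2 and 41.5 CPM when fed, 14.2, 19.99 and 22.2 when fasted and 28.5, 36.05 and 49.8 when refed. Refed and fasted WT/Y657* mice did not overlap, whereas refed and fasted wild-type mice did by a small margin.

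The fall of *Srebf2* on fasting was 1.49-fold in wild-type (-0.58, 0.15, adjusted p = 0.00320) and 1.56-fold in WT/Y657* mice (-0.64, 0.15, adjusted p = 0.00123). The rise on refeeding was 1.49-fold in wild-type (0.58, 0.15, adjusted p = 0.00332) and 1.94-fold in WT/Y657* mice (0.96, 0.15, adjusted p = 8.42e-06). Within the higher number series alone the wild-type rise was 0.30 on the log2 scale (adjusted p = 0.329). Unlike *Srebf1*, *Srebf2* was not called between refed and fed mice, with log2 fold changes of 0.00037 in wild-type (adjusted p = 0.999) and 0.31 in WT/Y657* mice (adjusted p = 0.122, or 0.0319 at 0.43 without fed WT/Y657* mouse ALC_MT_857).

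Within each mouse, *Srebf1* stood above *Srebf2* per length by a factor that moved with feeding. The ratio of their RPKM was 18.2, 18.8 and 22.3 in fed, 3.25, 4.32 and 6.52 in fasted and 4.87, 7.82 and 9.09 in refed wild-type mice (lowest, median, highest), whereas WT/Y657* mice had ratios of 16.4, 25.2 and 42.9 when fed, 1.49, 2.99 and 4.06 when fasted and 4.39, 7.53 and 9.22 when refed. The fed mice of each genotype all lay above every fasted and refed mouse.

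Of the genes that hold or carry the SREBPs, the 2 anchors moved in opposite directions. *Insig1*, itself a target of the SREBPs, was at 456, 544 and 684 CPM in fed, 95.3, 141 and 167 in fasted and 310, 543 and 1051 in refed wild-type mice. WT/Y657* mice had it at 396, 545 and 743 CPM when fed, 55.2, 78.3 and 144 when fasted and 283, 369 and 820 when refed. Fasted mice lay below all fed and all refed mice of their genotype, and refed mice spread over the widest range. In refed wild-type mice the lower number series was at 568 to 1051 CPM and the higher series at 310 to 518. In refed WT/Y657* mice the 2 series were at 379 to 820 and at 283 to 358 CPM.

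*Insig1* fell 4.11-fold on fasting in wild-type (-2.04, 0.29, adjusted p = 1.57e-06) and 6.39-fold in WT/Y657* mice (-2.68, 0.30, adjusted p = 2.05e-08). On refeeding it rose 4.52-fold (2.18, 0.29, adjusted p = 8.31e-07) and 5.64-fold (2.50, 0.29, adjusted p = 9.00e-08), respectively. It was not called between refed and fed mice of either genotype (0.14, adjusted p = 0.757, and -0.18, adjusted p = 0.683).

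*Insig2*, the other anchor, whose liver transcript is known to be lowered by insulin, was at 119, 203 and 234 CPM in fed, 414, 445 and 498 in fasted and 94.8, 104 and 134 in refed wild-type mice, whereas WT/Y657* mice lay at 156, 226 and 267 CPM when fed, 471, 554 and 785 when fasted and 93.9, 112 and 192 when refed. Fasted mice of each genotype lay above all fed and all refed mice. The rise on fasting was 2.37-fold in wild-type (1.25, 0.16, adjusted p = 2.25e-07) and 2.62-fold in WT/Y657* mice (1.39, 0.16, adjusted p = 3.10e-08).

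Refeeding lowered *Insig2* 4.18-fold in wild-type (-2.06, 0.17, adjusted p = 2.31e-11) and 4.797-fold in WT/Y657* mice (-2.26, 0.17, adjusted p = 4.14e-12), to a level below that of fed mice. Against fed mice it was 1.76-fold lower in wild-type (-0.82, 0.16, adjusted p = 0.000261) and 1.83-fold lower in WT/Y657* mice (-0.87, 0.16, adjusted p = 0.000118). After 6 h of refeeding *Insig2* was therefore called below the fed level, whereas *Insig1* was not called against it, and the difference between the 2 genes was not tested.

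The balance of the anchors changed from an excess of *Insig1* to an excess of *Insig2* on fasting. The *Insig2* to *Insig1* ratio of RPKM within a mouse was 0.212, 0.282 and 0.443 in fed, 2.21, 2.96 and 4.61 in fasted and 0.0804, 0.172 and 0.297 in refed wild-type mice, whereas WT/Y657* mice had ratios of 0.187, 0.368 and 0.600 when fed, 2.997, 6.32 and 12.2 when fasted and 0.102, 0.296 and 0.451 when refed. Every fasted mouse was above 1 and every fed or refed mouse below 1.

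**Figure D3:**
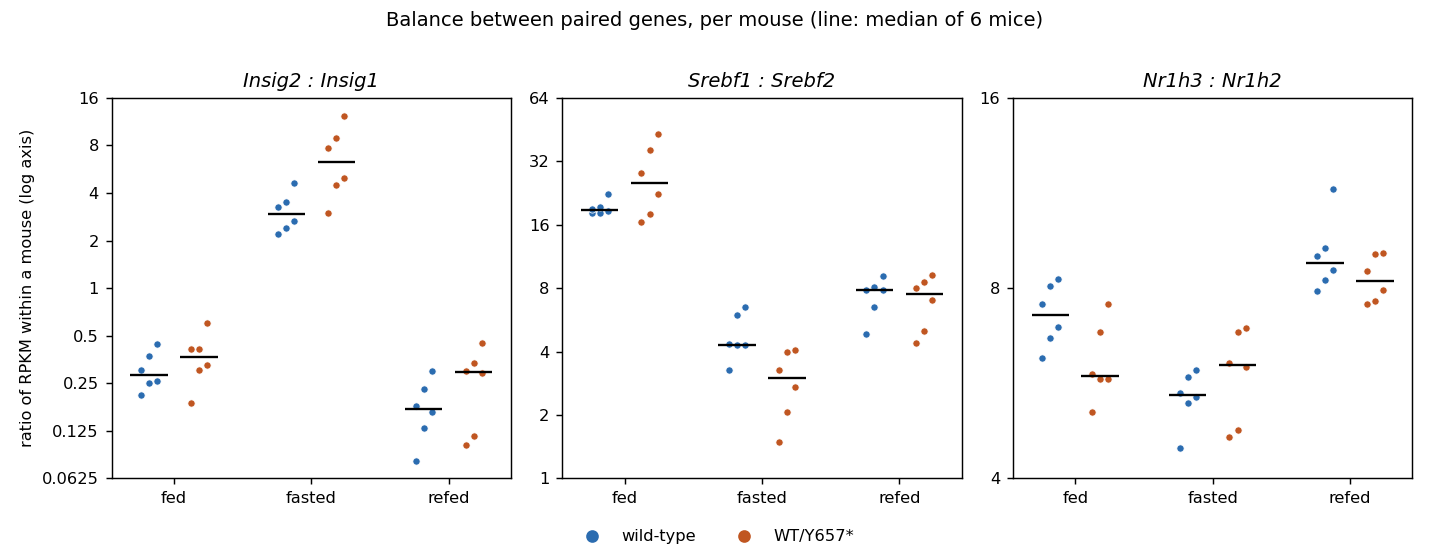
Ratio of RPKM within each mouse (points, log axis) for Insig2 to Insig1, Srebf1 to Srebf2 and Nr1h3 to Nr1h2, by feeding state, wild-type in blue and WT/Y657* in orange, with a line at the median of 6 mice. Insig2 to Insig1 was above 1 in every fasted mouse and below 1 in every other mouse, and Srebf1 to Srebf2 was highest in fed mice.

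*Scap*, the escort, changed little. It was at 104, 120 and 138 CPM in fed, 107, 126 and 133 in fasted and 91.3, 99.9 and 106 in refed wild-type mice. WT/Y657* mice had it at 114, 130 and 150 CPM when fed, 101, 108 and 120 when fasted and 87.0, 107 and 118 when refed. Refed wild-type mice all lay below fasted wild-type mice, and the other neighbouring states overlapped.

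*Scap* was not called on fasting in wild-type mice (0.016, 0.07, adjusted p = 0.899) and fell by 0.25 on the log2 scale in WT/Y657* mice (standard error 0.07, adjusted p = 0.00824). On refeeding it fell by 0.30 in wild-type mice (0.07, adjusted p = 0.00169) and was not called in WT/Y657* mice (-0.090, 0.07, adjusted p = 0.380). Within the lower number series alone the wild-type fall was 0.24 (adjusted p = 0.111). Refed mice were lower than fed mice in both genotypes, by -0.29 (adjusted p = 0.00333) and -0.34 (adjusted p = 0.000661). The difference of the fasting response between genotypes was -0.27 (standard error 0.11, adjusted p = 0.141), so the 2 genotypes are not shown to differ.

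The proteases changed by at most 1.45-fold in any comparison. *Mbtps1* was at 75.5, 81.7 and 84.5 CPM in fed, 63.7, 72.4 and 77.2 in fasted and 59.7, 63.3 and 66.1 in refed wild-type mice, whereas WT/Y657* mice lay at 65.7, 74.8 and 81.0 CPM when fed, 57.6, 71.0 and 73.5 when fasted and 53.9, 63.6 and 67.8 when refed. Refed wild-type mice all lay below fed wild-type mice, with a log2 fold change of -0.35 (0.06, adjusted p = 4.85e-05), and the same comparison gave -0.25 in WT/Y657* mice (0.06, adjusted p = 0.00278).

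The steps of *Mbtps1* between neighbouring states were small and their calls fragile. The fall on fasting in wild-type mice was -0.17 (adjusted p = 0.0392), and leaving out any one of fed mice ALC_WT_847, ALC_WT_848, ALC_WT_849 or ALC_WT_860 or fasted mice ONF_WT_807, ONF_WT_824 or ONF_WT_825 raised the adjusted p to between 0.0610 and 0.120. The fall on refeeding was -0.19 (adjusted p = 0.0189), or -0.17 (adjusted p = 0.0543) without fasted mouse ONF_WT_919. Within the lower and the higher number series alone it was -0.14 (adjusted p = 0.287) and -0.24 (adjusted p = 0.0511). In WT/Y657* mice neither step was called (-0.13, adjusted p = 0.116, and -0.12, adjusted p = 0.139), although fasting was at 0.0467 without fed mouse ALC_MT_866 and refeeding at 0.0373 without fasted mouse ONF_MT_806.

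*Mbtps2* was the gene with the fewest counts, at 7.72, 8.57 and 10.2 CPM in fed, 7.01, 8.85 and 9.61 in fasted and 6.07, 7.16 and 8.34 in refed wild-type mice. WT/Y657* mice had it at 6.81, 7.86 and 9.19 CPM when fed, 8.32, 9.89 and 10.6 when fasted and 5.68, 6.51 and 8.51 when refed. Its groups overlapped in all comparisons. In WT/Y657* mice it fell by 0.54 on the log2 scale on refeeding (standard error 0.11, adjusted p = 0.000334), and by 0.41 (adjusted p = 0.0658) within the lower number series alone.

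The rise of *Mbtps2* on fasting in WT/Y657* mice, 0.30 (0.11, adjusted p = 0.0397), was lost without any one of fed mice ALC_MT_857, ALC_MT_858 or ALC_MT_869 or fasted mice ONF_MT_806, ONF_MT_827, ONF_MT_921 or ONF_MT_923, with adjusted p-values from 0.0599 to 0.0960. The lower level in refed than in fed wild-type mice (-0.31, adjusted p = 0.0369) was lost without any one of fed mice ALC_WT_847, ALC_WT_848 or ALC_WT_860 or refed mice RF6_WT_816, RF6_WT_896 or RF6_WT_900 (adjusted p from 0.0519 to 0.0964). In wild-type mice the refeeding change was not called (-0.27, adjusted p = 0.0726), but was at 0.0367 without fasted mouse ONF_WT_918 and at 0.0460 without refed mouse RF6_WT_828. The same holds for refed against fed WT/Y657* mice (-0.24, adjusted p = 0.116, and 0.0411 without refed mouse RF6_MT_814).

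In wild-type mice *Nr1h3* was called on refeeding and *Nr1h2* on both fasting and refeeding. *Nr1h3* (LXRα, the form prominent in liver) was at 95.7, 105 and 108 CPM in fed, 89.4, 99.0 and 100.1 in fasted and 128, 130 and 154 in refed wild-type mice, whereas WT/Y657* mice lay at 88.5, 104 and 109 CPM when fed, 89.2, 99.8 and 115 when fasted and 123, 136 and 154 when refed. Every refed mouse lay above every fed and every fasted mouse of its genotype.

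*Nr1h3* rose 1.40-fold on refeeding in wild-type (0.48, 0.07, adjusted p = 5.11e-07) and 1.35-fold in WT/Y657* mice (0.43, 0.07, adjusted p = 3.45e-06). It was also above the fed level by 0.38 (adjusted p = 3.74e-05) and 0.43 (adjusted p = 6.22e-06), respectively. On fasting it was not called in either genotype (-0.10, adjusted p = 0.262, and 0.000062, adjusted p = 0.999).

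*Nr1h2* (LXRβ) was at 17.5, 18.7 and 22.4 CPM in fed, 22.1, 23.8 and 26.7 in fasted and 17.8, 20.2 and 21.5 in refed wild-type mice, whereas WT/Y657* mice lay at 18.6, 22.5 and 26.2 CPM when fed, 19.8, 23.4 and 26.7 when fasted and 19.05, 22.99 and 24.2 when refed. Fasted and refed wild-type mice did not overlap, whereas the 3 states overlapped in WT/Y657* mice.

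In wild-type mice *Nr1h2* rose by 0.33 on fasting (standard error 0.09, adjusted p = 0.00421) and fell by 0.27 on refeeding (0.09, adjusted p = 0.0208). The fall was not called without fasted mouse ONF_WT_807 (adjusted p = 0.0588) or refed mouse RF6_WT_828 (adjusted p = 0.0512), nor within the higher number series alone (-0.14, adjusted p = 0.513). In WT/Y657* mice neither step was called (0.059, adjusted p = 0.654, and -0.081, adjusted p = 0.524), and the difference of the fasting response between genotypes was not called either (-0.27, 0.13, adjusted p = 0.225). In wild-type mice the 6 endothelial markers together held 238 to 316 CPM fed, 325 to 375 fasted and 254 to 337 refed. In WT/Y657* mice, where *Nr1h2* was not called, they held 271 to 350, 301 to 375 and 257 to 289 CPM. The part of these markers in the change of *Nr1h2* was not tested.

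Per length, *Nr1h3* exceeded *Nr1h2* in every mouse. The ratio was 6.20, 7.25 and 8.27 in fed, 4.47, 5.42 and 5.93 in fasted and 7.93, 8.76 and 11.5 in refed wild-type mice, whereas WT/Y657* mice had ratios of 5.09, 5.81 and 7.55 when fed, 4.65, 6.04 and 6.93 when fasted and 7.55, 8.22 and 9.09 when refed. In wild-type mice the fasted range lay below the fed range, while these 2 ranges overlapped in WT/Y657* mice.

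*Mylip*, a known LXR target, was high in fasted mice. It was at 7.18, 8.98 and 10.6 CPM in fed, 14.2, 16.6 and 20.1 in fasted and 9.05, 10.8 and 13.5 in refed wild-type mice, whereas WT/Y657* mice lay at 8.33, 9.44 and 13.7 CPM when fed, 18.04, 24.6 and 26.4 when fasted and 10.3, 12.6 and 13.3 when refed. Fasted mice of each genotype lay above all fed and all refed mice.

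*Mylip* rose 1.87-fold on fasting in wild-type (0.90, 0.12, adjusted p = 1.65e-07) and 2.27-fold in WT/Y657* mice (1.18, 0.12, adjusted p = 2.98e-10). It fell 1.52-fold on refeeding in wild-type (-0.61, 0.12, adjusted p = 0.000105) and 1.89-fold in WT/Y657* mice (-0.92, 0.11, adjusted p = 7.11e-08). Against fed mice, refed mice were at 0.30 (adjusted p = 0.0633) and 0.26 (adjusted p = 0.0953) on the log2 scale. These reached the threshold without wild-type fed mouse ALC_WT_848 (0.0391), wild-type refed mouse RF6_WT_896 (0.0337) or WT/Y657* fed mouse ALC_MT_866 (0.0198).

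The genotypes were compared within each feeding state. In fed mice 0 of 10 genes were called by edgeR, against 2.37% of all genes tested, and *Nr1h2* alone was under 0.05 before adjustment (0.23, 0.09, adjusted p = 0.150). Wild-type and WT/Y657* mice overlapped for all 10 genes in this state, and the share of all genes that overlapped is not given here. Scaling by library size alone shifted the median of all genes by 0.11 on the log2 scale in this comparison and put *Nr1h2* at 0.33 (adjusted p = 0.0495). No gene of the 10 was called by DESeq2 or by the likelihood ratio test.

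In fasted mice 2 of 10 genes were called, *Srebf1* lower and *Mylip* higher in WT/Y657* mice, against 13.1% of all genes tested (6.43% higher and 6.63% lower). In refed mice 0 of 10 were called, against 0.0287% of all genes, with none at an unadjusted p under 0.05 and none called by DESeq2 or the likelihood ratio test.

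**Figure D4:**
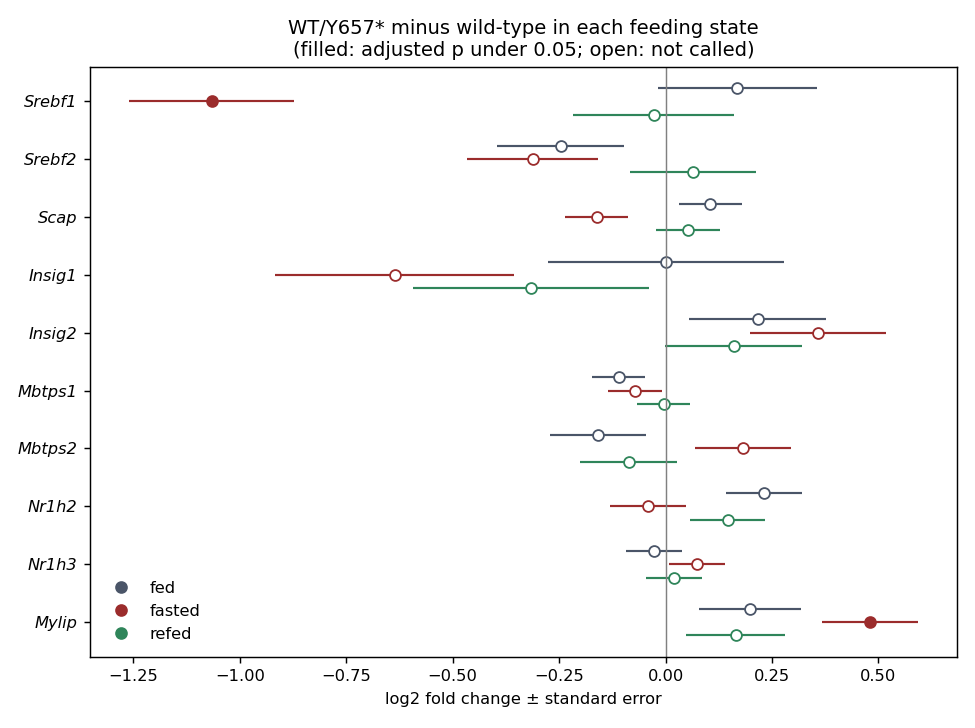
Log2 fold change (WT/Y657* minus wild-type) with its standard error for each gene in fed (grey), fasted (red) and refed (green) mice, with filled points for an adjusted p under 0.05. Srebf1 at -1.07 and Mylip at 0.48, both in fasted mice, are the filled points.

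*Srebf1* was 2.09-fold lower in fasted WT/Y657* than in fasted wild-type mice (-1.07, 0.19, adjusted p = 0.000374), and the highest WT/Y657* mouse (54.0 CPM) lay below the lowest wild-type mouse (64.3 CPM). In the lower number series the wild-type mice were at 64.3, 69.7 and 79.2 CPM and the WT/Y657* mice at 22.8, 33.3 and 54.0. In the higher series they were at 76.8, 104 and 139 CPM and at 44.4, 47.4 and 53.1. The genotypes were apart in both series, by -0.96 (adjusted p = 0.0176) and -1.14 (adjusted p = 0.0358). In fed and refed mice *Srebf1* was not called, at 0.17 (0.19, adjusted p = 0.686) and -0.028 (0.19, adjusted p = 0.974).

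The fasting response of *Srebf1* differed between genotypes by -1.24 (0.27, adjusted p = 0.00775), where 4.35% of all genes were called and *Srebf1* was the only one of the 10. It stayed called without each of the 24 mice in turn. The refeeding response differed by 1.04 (0.27, adjusted p = 0.0356), where 2.06% of all genes were called and *Srebf1* was again the only one of the 10. This second call depended on single mice, and was lost without any one of wild-type fasted mice ONF_WT_918 or ONF_WT_919, wild-type refed mice RF6_WT_816, RF6_WT_900 or RF6_WT_901, WT/Y657* fasted mice ONF_MT_806 or ONF_MT_827, or WT/Y657* refed mice RF6_MT_817 or RF6_MT_898. The difference then lay between 0.87 and 1.06 with an adjusted p from 0.0531 to 0.0742, and 0.071 with number series as a covariate. Both differences use the fasted mice that also give the genotype difference above.

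*Mylip* was 1.39-fold higher in fasted WT/Y657* than in fasted wild-type mice (0.48, 0.11, adjusted p = 0.00407), with overlapping groups. In the lower number series the wild-type mice were at 15.4, 16.2 and 17.1 CPM and the WT/Y657* mice at 25.1, 26.2 and 26.4, a difference of 0.68 (adjusted p = 0.00535). In the higher series they were at 14.2, 17.2 and 20.1 CPM and at 18.04, 19.98 and 24.03, a difference of 0.27 (adjusted p = 0.457). Whether the 2 series differ was not tested. The fasting response of *Mylip* did not pass the test of a difference between genotypes (0.28, 0.17, adjusted p = 0.358), nor did its refeeding response (-0.32, 0.16, adjusted p = 0.350). The summed level of the 6 stellate cell markers was 316 to 381 CPM in fasted wild-type and 345 to 498 in fasted WT/Y657* mice. In fed mice, where *Mylip* was not called (0.20, adjusted p = 0.396), that sum was 261 to 380 and 365 to 511 CPM. The part of these markers in the differences of *Mylip* was not tested.

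The anchors, the escort and *Srebf2* were not called in fasted mice. *Insig1* was at -0.64 (0.28, adjusted p = 0.136, or 0.0474 at -0.84 without WT/Y657* mouse ONF_MT_921), and *Insig2* at 0.36 (0.16, adjusted p = 0.140, or 0.0442 at 0.38 with the compared groups fitted alone). *Srebf2* was at -0.31 (0.15, adjusted p = 0.185) and *Scap* at -0.16 (0.07, adjusted p = 0.150). *Mbtps1*, *Mbtps2*, *Nr1h2* and *Nr1h3* lay between -0.072 and 0.18 on the log2 scale, with adjusted p-values from 0.305 to 0.820.

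Genes downstream of the SREBPs were taken from 2 lists of well-known targets. Of 22 SREBP-2 targets tested, genes of cholesterol synthesis and uptake, 19 were lower and 0 higher in fasted wild-type mice, with a median log2 fold change of -1.74 against 0.010 over all genes, and 19 were lower in fasted WT/Y657* mice (median -1.96). On refeeding 19 rose in wild-type (median 2.07) and 20 in WT/Y657* mice (median 2.29), and none fell. Of all genes tested, 17.5% were lower in fasted wild-type and 17.7% in fasted WT/Y657* mice, and 16.5% and 17.1% rose on refeeding. *Fdps*, which encodes farnesyl diphosphate synthase, was at -3.43 on fasting in wild-type mice (adjusted p = 5.84e-07), and *Sc5d*, a late enzyme of cholesterol synthesis, at -1.74 in WT/Y657* mice (adjusted p = 5.66e-09). *Lss*, which encodes lanosterol synthase, rose by 2.95 on refeeding in wild-type mice (adjusted p = 1.91e-07). In refed against fed wild-type mice, where 27.5% of all genes were called, 3 were higher and 1 was lower. This left 18 not called, as *Srebf2* and *Insig1* were not.

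The 18 SREBP-1 targets were genes of fatty acid and other lipid metabolism. Of these, 12 were lower and 2 higher in fasted wild-type mice (median -1.52), and 14 were lower in fasted WT/Y657* mice (median -1.42). On refeeding 6 rose and 3 fell in wild-type (median 0.22) and 8 rose and 4 fell in WT/Y657* mice (median 0.15). After 6 h of refeeding 15 were lower and 2 higher than in fed wild-type mice (median -0.96), and 14 were lower in WT/Y657* mice (median -1.49). *Acaca*, which encodes acetyl-CoA carboxylase, was at -1.29 in refed against fed wild-type mice (adjusted p = 3.87e-06) and at -1.53 in WT/Y657* mice (adjusted p = 2.38e-07). *Fasn*, which encodes fatty acid synthase, rose by 2.17 on refeeding in wild-type mice (adjusted p = 3.11e-05).

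In fasted mice, where *Srebf1* was lower in WT/Y657* mice, 1 of 18 SREBP-1 targets was called, *Mid1ip1* (-1.04, 0.24, adjusted p = 0.00415), which encodes a partner of acetyl-CoA carboxylase. The other 17 were not called, and the list's median was -0.17. Of all genes tested 13.1% were called in this comparison. Of 22 SREBP-2 targets 1 was called, and none had a log2 fold change above 0 (median -0.40). In fed mice, where 2.37% of all genes were called, *Elovl5* (1.17, adjusted p = 0.00799) and *Pnpla3* (2.25, adjusted p = 0.0270) were higher among the SREBP-1 targets. Of 22 SREBP-2 targets 0 were called in fed mice, and 2 had a log2 fold change above 0 (median -0.20). In refed mice 0 genes of either list were called, against 0.0287% of all genes tested.

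Among the genes tested on MYLIP's receptors and ubiquitin-conjugating enzymes, *Ube2d3* was higher in fasted WT/Y657* than in fasted wild-type mice (0.23, adjusted p = 0.0179). *Vldlr*, a receptor that MYLIP acts on, rose by 2.80 on fasting in wild-type mice (adjusted p = 0.000194) and was at 0.58 in WT/Y657* mice (adjusted p = 0.415), and the difference of these responses did not pass the test (-2.22, 0.76, adjusted p = 0.0884). These are levels of transcript, and proteins were not analysed here.

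Targets of the LXRs did not move as 1 group. Of 12 genes, of which *Scd1* is also among the SREBP-1 targets, 4 were higher and 1 lower in fasted wild-type mice (median 0.36), and 2 were higher and 1 lower in fasted WT/Y657* mice (median -0.32). Fasting called 32% and 32.9% of all genes tested in the 2 genotypes, and refeeding 30.2% and 31.3%. *Abcb4*, a phospholipid transporter of the bile canaliculus, rose by 1.32 on fasting in wild-type mice (adjusted p = 6.12e-14), while *Abca1*, a cholesterol exporter, fell by 1.04 (adjusted p = 2.57e-08). On refeeding, where *Nr1h3* rose, 1 target rose and 5 fell in wild-type (median -0.28) and 1 rose and 3 fell in WT/Y657* mice (median -0.20), with *Lpcat3*, a phospholipid acyltransferase, at -0.90 and -0.68 (adjusted p = 1.85e-09 and 3.90e-07). In fed mice *Abca1* was lower in WT/Y657* mice (-0.44, adjusted p = 0.0451) and was the 1 target called, whereas 10 of 12 had a log2 fold change above 0 (median 0.32). *Abcg5*, a sterol transporter, was at 0.86 (adjusted p = 0.0874) and *Abcg1*, a cholesterol exporter, at 0.55 (adjusted p = 0.0914). In fasted mice *Lpcat3* was lower in WT/Y657* mice (-0.27, adjusted p = 0.0410), and its fasting response differed between genotypes by -0.53 (adjusted p = 0.0136). In refed mice 0 of 12 were called. Between genotypes 2.37% of all genes tested were called in fed, 13.1% in fasted and 0.0287% in refed mice.

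The partners of the LXRs, retinoid X receptors and co-regulators, were called in 6 of 10 cases on fasting in wild-type mice (4 of them lower), against 32% of all genes, and in 2 of 10 in WT/Y657* mice (both lower), against 32.9%. By edgeR 0 of 10 were called for the difference of the fasting response between genotypes (median 0.0055), with *Rxra* alone under 0.05 before adjustment, so the genotypes are not shown to differ. *Rxrb* rose by 0.29 on fasting in wild-type mice (adjusted p = 0.00330) and fell by 0.31 on refeeding (adjusted p = 0.00164), as *Nr1h2* did. *Rxra*, the main retinoid X receptor of liver, was lower in fed WT/Y657* mice (-0.31, adjusted p = 0.00736). No partner was called between genotypes in fasted or refed mice, against 13.1% and 0.0287% of all genes.

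Genes that handle SCAP, INSIG or the SREBPs, including ubiquitin ligases and coat proteins of the vesicles that leave the endoplasmic reticulum, were more mixed. Of 18, 3 were higher and 9 lower in fasted wild-type mice, against 32% of all genes called. In fasted WT/Y657* mice 4 were higher and 5 lower, against 32.9%. *Sec23b*, a coat component, fell by 1.49 and by 1.22 on fasting (adjusted p = 7.99e-12 and 7.60e-10) and rose by 1.04 and 1.28 on refeeding (adjusted p = 4.08e-08 and 4.63e-10). Between genotypes *Syvn1*, a ubiquitin ligase of the endoplasmic reticulum, was lower in fed WT/Y657* mice (-1.02, adjusted p = 0.00968), and its fasting response differed by 1.29 (adjusted p = 0.0113). *Sec24d*, a coat component, was lower in both fed (-0.37, adjusted p = 0.0196) and fasted WT/Y657* mice (-0.26, adjusted p = 0.0439), and *Rnf139* was higher in fasted WT/Y657* mice (0.18, adjusted p = 0.0249).

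**Figure D5:**
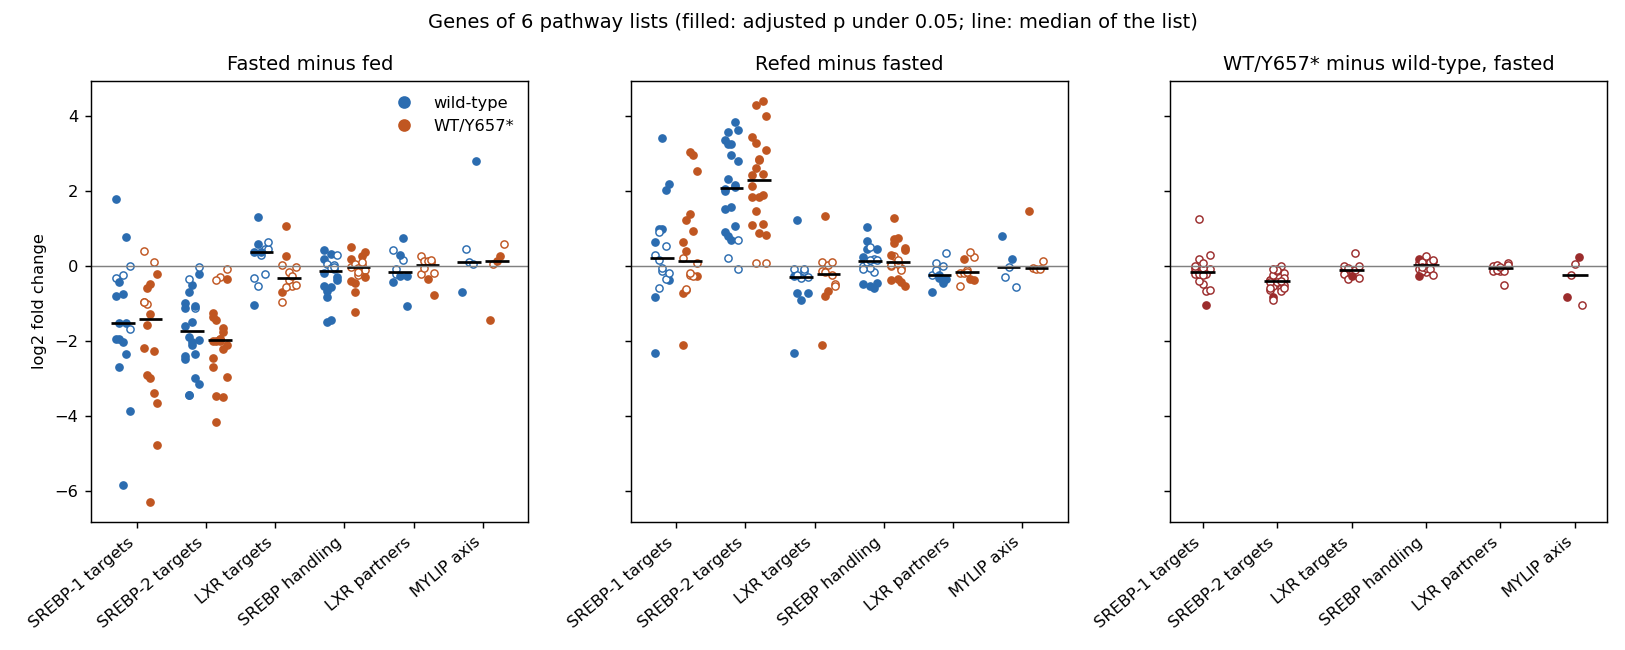
Log2 fold change of each gene of the 6 pathway lists on fasting (left), on refeeding (middle) and between genotypes in fasted mice (right, red), wild-type in blue and WT/Y657* in orange in the first 2 panels, filled where the adjusted p was under 0.05, with a line at each list's median. In wild-type mice 19 of 22 SREBP-2 targets fell on fasting (list median -1.74) and 19 rose on refeeding (2.07), and few genes were filled between genotypes. Of all genes tested 17.5% fell on fasting and 16.5% rose on refeeding in wild-type mice, and 13.1% were called between fasted genotypes.

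The transcripts whose log2 CPM followed these genes most closely over the 36 mice were sought among all genes tested outside the 10. The 36 points share their libraries and feeding states, so the correlations describe the pattern over groups. *Srebf1* was nearest to *Fasn* (r = 0.95) and *Nudt7* (0.94), *Srebf2* to *Cyp51* (0.92) and *Sqle* (0.92), 2 genes of cholesterol synthesis, and *Insig1* was close to *Stard4* (0.97), the second in rank. After removal of each group's mean, which leaves the number series in place, the values were 0.37 and 0.44 for *Srebf1*, 0.80 and 0.81 for *Srebf2* and 0.83 for *Insig1*.

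*Insig2* was nearest to *AU022252* (0.95) and *D19Wsu162e* (0.93), *Nr1h3* to *Odc1* (0.92) and *Hagh* (0.89), and *Mylip* to *Rabggtb* (0.90) and *Grn* (0.88). For the genes that moved little the nearest were further off, *Ndst1* (0.83) and *Tmprss6* (0.82) for *Scap*, *Col18a1* (0.83) and *Plg* (0.82) for *Mbtps1*, *Nek2* (0.76) and *Maz* (0.74) for *Nr1h2*, and *Ifi203* (0.74) and *Cbfa2t3* (0.72) for *Mbtps2*. Ranked by Spearman's rho, 10 of the 20 genes in the first 2 ranks were again among the nearest 2.

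Among the 10 genes themselves, *Srebf2* and *Insig1* were correlated at r = 0.84, and at 0.63 after removal of group means. *Srebf1* and *Mylip* were correlated at -0.89, and at -0.24 after removal of group means. *Insig1* and *Insig2* were correlated at -0.83, and at -0.27 within groups. The first pair thus varied together among mice of a group, whereas the relation of the other 2 pairs was mostly one between feeding states. Removal of group means leaves the number series in place, and its part in the correlation of the first pair was not tested.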

How the data were processed

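Liver total RNA was sequenced as stranded libraries with 50-base single reads. The authors deposited a table of estimated counts per gene and mouse, without normalization. Per the labels, the submitters' notes name Cuffdiff, SAMtools, featureCounts and edgeR, with no versions, and the build mm9, whereas 44.2% of the 36341 gene positions shared with GENCODE M21 equal its GRCm38 bounds. The notes describe counting on human genes, and identifiers were used as given. A second deposited table gives 1 fitted level per group scaled to each library, which holds no spread between mice, and was not used.

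Of non-zero values, 3.64% were not whole, and all were rounded. The 13945 genes kept by filterByExpr were scaled by TMM and fitted in edgeR 4.0.16 (R 4.3.3) by a robust quasi-likelihood model with 1 coefficient per group over 36 libraries. Contrasts were tested two-sided, with Benjamini-Hochberg adjustment and a threshold of 0.05. The standard error is the log2 fold change divided by the square root of F. CPM are TMM-scaled, and log2 CPM used a prior count of 2. The fit was tested on simulated data. Groups came from the sample labels, which do not name litters or cages. No pair of mice in a group agreed within sampling noise.

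The 10 genes and the pathway and marker lists were chosen with earlier results of these data known. All 10 genes were described, with up to 3 genes of the smallest p per list and comparison and the 2 nearest genes by correlation. Alternatives were DESeq2 1.42.0, a likelihood ratio test, other scalings and filters, fewer groups, mouse number series, and leaving out each mouse. Some genes of these lists are not reported here.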

Additional observations from a re-analysis of the deposited data

Results flagged for a closer look

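The response of *Srebf1* to fasting differed between genotypes by -1.24 on the log2 scale, and its response to refeeding by 1.04, each by a test of the difference itself. Among the 60 combinations of gene and group, 3 held a mouse far from the other 5 of its group (a gap over 0.625 of the group's range), and chance marks about 1 group in 20. *Insig2* was at 134 CPM in refed wild-type mouse RF6_WT_896, with the next mouse at 108, and at 192 CPM in refed WT/Y657* mouse RF6_MT_810, with the next at 118. *Nr1h3* was at 154 CPM in refed wild-type mouse RF6_WT_828, with the next at 136. Without mouse RF6_MT_810 the fall of *Insig2* on refeeding in WT/Y657* mice was -2.44 on the log2 scale.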

How the results depend on the processing

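No paired analysis was possible because no mouse number occurs in more than 1 group. The number of the 10 genes called stayed within 1.5 times its value under all alternatives run except these. In fed mice scaling by library size alone called 1 gene (*Nr1h2*) between genotypes in place of 0. In fasted mice the higher number series alone called 1 in place of 2. For the difference of the refeeding response, 0 in place of 1 were called with no filter, with only the compared groups, with number series as a covariate, and within the lower and the higher series. The *Srebf1* difference there was 0.92 to 1.13 with adjusted p from 0.066 to 0.626. Leaving out each mouse in turn gave 0 to 0 genes called between genotypes in fed, 2 to 3 in fasted and 0 to 0 in refed mice. It gave 6 to 7 and 6 to 8 on fasting in wild-type and WT/Y657* mice, 8 to 10 and 7 to 8 on refeeding, and 5 to 6 and 5 to 6 for refed against fed mice. It gave 1 to 1 for the difference of the fasting response and 0 to 1 for that of refeeding. By Spearman's rho 10 of the 20 nearest genes remained. Of 444 values of the 45 calls under alternatives, 31 lost the call and none changed direction, with leaving out a mouse counted there for the genotype comparisons only. Among them, scaling by library size alone ended the calls of *Mbtps1* and *Nr1h2* on refeeding in wild-type mice and of *Mbtps2* on fasting in WT/Y657* mice and in refed against fed wild-type mice (adjusted p from 0.121 to 0.150). With no filter the same calls of *Mbtps1* and *Mbtps2* and that of *Mbtps1* on fasting in wild-type mice were lost (0.0582 to 0.120).

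Over all genes, calls between fed genotypes ranged from 30 (compared groups only) to 756 (library size alone) beside 330, and between refed genotypes from 0 (higher series) to 24 (DESeq2) beside 4. Within the lower and higher series 1018 and 73 were called between fasted genotypes beside 1821, and 2541 and 1926 on refeeding in wild-type mice beside 4217. The same gave 1948 in the higher series in WT/Y657* mice beside 4371. With no filter the fasting response differed for 386 genes beside 607, and the refeeding response for 152 beside 287 (164 and 0 within the series). Series of 3 against 3 mice limit these counts.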
